A study of Mus musculus with 6 samples.

Results

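Embryoid bodies (EBs) after 3 days in retinoic acid (RA) were compared with EBs collected just before RA was added. EBs are floating aggregates of embryonic stem (ES) cells that differentiate into the first tissues of the embryo. All samples came from R1 mouse ES cells, an established line, grown as suspension aggregates in medium without LIF, and the labels give no genetic change for any of them. The day 0 group held 2 arrays of EBs that had not received RA, and the day 3 group held 2 arrays of EBs that had been 4 days old when RA (2 μM) was added and were collected 3 days later. These were 4 of the 6 arrays of the study, which used Affymetrix Mouse Gene 1.0 ST arrays, and the 2 day 4 arrays are given beside them where they show what followed. Every one of the 19938 genes that could be named from a probe set with a single symbol was tested, and the account below goes by gene family, with most room for families other than pluripotency, primitive streak, Hox and retinoid genes. The day 3 EBs were also 3 days older, and EBs kept for that time with no RA were not analysed here, so what RA did and what age did cannot be told apart.

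RA is the active form of vitamin A. It enters the nucleus, binds RA receptors that sit on DNA as partners of retinoid X receptors, and turns them into activators. In the embryo it is made by trunk mesoderm and sets the anterior to posterior identity of the hindbrain and trunk, shapes the heart and its epicardium, the kidney and the limbs, and opposes the FGF and Wnt signals of the tail bud. In cultured ES cells it ends pluripotency, and the cell types that follow depend on the dose and on when it is added.

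Levels are RMA intensities on the log2 scale, so a difference of 1 is a 2-fold change. A gene was called when its adjusted p was 0.05 or below in limma, over all 19938 genes, and "rose" and "fell" are used for called genes only. Of all genes, 10345 were called, 51.9% of those tested, with 4749 higher (23.8%) and 5596 lower (28.1%) at day 3. At least 2-fold changes were called for 1840 genes (9.23%), 1025 of them higher (5.14%) and 815 lower (4.09%), at least 4-fold changes for 264 and 189 genes, and at least 16-fold changes for 43 and 12 genes. Small changes were thus frequent in both directions, and large ones were more often rises. The median gene moved by −0.05, and the smallest called change was 0.14. The split of all calls moved with the scaling of the arrays, from 45.9% higher as deposited to 51.2% with cyclic loess. The 2 arrays of a day correlated at 0.999 across genes, against 0.958 to 0.959 between the days (Pearson's r over genes, a description only, since genes are no replicates). Whether the 2 samples of a day were separate cultures is not in the labels, so every p-value rests on a spread between arrays that may be technical. The authors of the study describe 2 biological replicates of the day 0 and day 4 RNA used for sequencing, and do not say this of the arrays. Each value is an average over all cells of the EBs, and fewer cells of a type cannot be told apart from less RNA per cell.

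**Figure D1:**
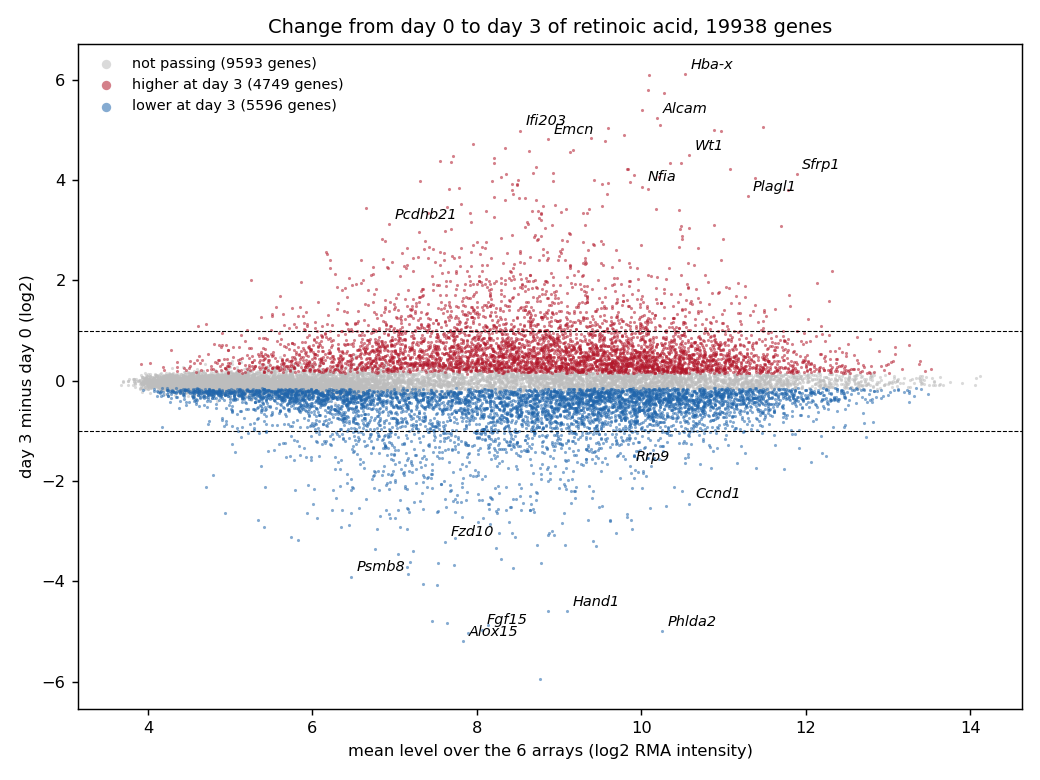
Change from day 0 to day 3 (log2, vertical axis) against the mean level over the 6 arrays (log2 RMA intensity, horizontal axis) for 19938 genes, 1 point per gene, red for the 4749 genes called higher, blue for the 5596 called lower, grey for the others. Dashed lines mark 2-fold changes, and the named points run from Hba-x at 6.11 to Alox15 at −5.20.

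The labels held against their markers. Pou5f1, which encodes the core pluripotency factor Oct4, stood at 10.27 and 10.20 before RA and at 6.31 and 6.01 after 3 days, and all 12 genes of the pluripotency list fell. Rarb, the RA receptor gene that is itself a direct target of RA, had levels of 6.18 and 6.63 at day 0 and of 12.11 and 12.17 at day 3, a change of 5.74 (SE 0.13, adjusted p = 1.3e-07, limma). The groups did not overlap for either gene. The promoter of Rarb is shown because it holds the best known RA response element, a direct repeat of a short motif. It is the 180-base stretch chr14:16575427-16575606 (minus strand, RefSeq, GRCm38.p6), from 130 bases before to 50 bases after the annotated start, with the repeat in capitals, 52 bases before the start.
Rarb: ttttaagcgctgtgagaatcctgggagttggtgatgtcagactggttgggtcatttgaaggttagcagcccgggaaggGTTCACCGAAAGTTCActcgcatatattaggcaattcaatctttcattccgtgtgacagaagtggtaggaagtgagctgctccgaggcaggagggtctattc
The repeat in these letters, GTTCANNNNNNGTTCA on either strand, was in the promoters (250 bases before to 50 after the start) of 12 of 15614 genes with a promoter in the table (0.0769%). Among genes called at least 2-fold higher it was in 3 of 774 (0.388%), and among those at least 2-fold lower in 1 of 614 (0.163%). The wider repeat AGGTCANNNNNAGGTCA was in 1 promoter of 15614 (0.0064%). These are matches of letters within a short window and say nothing of sites elsewhere.

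The cell types that the EBs could hold were followed by short marker lists, with the level of a list taken as the log2 of its summed linear intensities. The primitive red cell list stood at 10.3 to 10.5 at day 0 and 14.4 to 14.6 at day 3, with 6 of 7 measured markers higher. Mesothelium went from 11.2 to between 12.9 and 13.1 (2 of 4 higher, 1 lower). Mesenchyme and fibroblasts went from between 11.7 and 11.8 to 12.6 (6 of 8 higher, 1 lower). Endothelium went from between 12.4 and 12.5 to between 13.0 and 13.1 (6 of 8 higher, 1 lower). The primitive streak list fell from 13.4 to between 9.0 and 9.1 (6 of 6 lower), pluripotent cells from 13.3 to 10.4 (9 of 9 lower), epithelium from between 13.9 and 14 to between 12.4 and 12.5 (4 of 4 lower) and neurons from 11.1 to 10.4 (3 of 7 lower, 1 higher). Each sum leans on its brightest markers, and that of neurons was at day 0 mostly Stmn2, whose levels are given below. Heart muscle was at 10.6 at day 0 and 10.4 at day 3, and 3 of its 8 markers had a mean below 6 on each day. Of 5 skeletal muscle markers 1 fell and 4 did not pass. The 3 measured trophoblast markers did not pass, with a sum of 7.32 and 7.17 at day 0 and 7.25 and 7.33 at day 3. Neural progenitor markers went from 10.08 and 10.02 to 10.39 and 10.29 (2 of 5 higher, 1 lower). Visceral endoderm markers went from 8.95 and 9.13 to 9.50 and 9.88 (2 of 6 higher, 1 lower). Smooth muscle had 1 of 4 markers higher and 3 lower, and neural crest had 1 of 2 lower. The part of these shifts in the results that follow was not tested.

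Outside the pluripotency, streak, Hox and RA target lists, the 15 genes with the largest rises included a globin, adhesion and matrix proteins, transcription factors and secreted signals. Hba-x (probe set 10375046), the embryonic alpha-like globin, read 7.05 and 6.92 on the day 0 arrays and 13.13 and 13.06 on the day 3 arrays, a change of 6.11 (SE 0.09). Alcam (10439895), a cell adhesion molecule of the immunoglobulin family, stood at 6.78 and 6.51 before RA and at 11.90 and 11.88 after 3 days (5.24, SE 0.09). For both genes the 2 days were far apart and the arrays of a day close together. Foxc2, a forkhead factor of paraxial mesoderm and lymphatic vessels, rose by 5.04 (SE 0.08), and Sst, which encodes the hormone somatostatin, was at 6.62 on both day 0 arrays and at 11.56 and 11.48 at day 3. The others included Ecm1, a secreted matrix protein (5.07), Emcn, an endothelial mucin (4.81), Ptn, a heparin-binding growth factor (4.78), Shisa3, an inhibitor of Wnt and FGF receptor maturation (4.84), Sema3c, a secreted semaphorin (4.58), and Adgrl3, an adhesion G protein-coupled receptor (4.56).

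The 15 largest falls outside the same lists included enzymes, transcription factors and a hormone gene. Alox15, a lipoxygenase, had levels of 11.30 and 11.22 at day 0 and of 6.01 and 6.11 at day 3, a change of −5.20 (SE 0.06). Phlda2, an imprinted gene that restrains placental growth (probe set 10569437), read 13.40 and 13.46 on the day 0 arrays and 8.33 and 8.56 on the day 3 arrays. Both left the upper part of the scale, and neither overlapped between the days. Cdx2 (−4.86), the caudal factor of tail bud and trophectoderm, Hand1 (−4.60), a factor of extraembryonic and lateral mesoderm, and Zic2 (−3.85), a zinc finger factor of epiblast and neural plate, fell as well. Alox12b (−3.71), another lipoxygenase, Mogat2, a monoacylglycerol acyltransferase (−3.74), and Trh, which encodes thyrotropin-releasing hormone (−3.68), were also among the 15. Car4, a membrane carbonic anhydrase, had arrays that differed most within a day, with 6.71 and 7.76 at day 3 against 11.77 and 11.88 at day 0 (−4.59, SE 0.29). By the rule for naming, both day 3 arrays of the 30 genes lay beyond both day 0 arrays, which held for 31.9% of all genes upward and 43.5% downward.

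**Figure D2:**
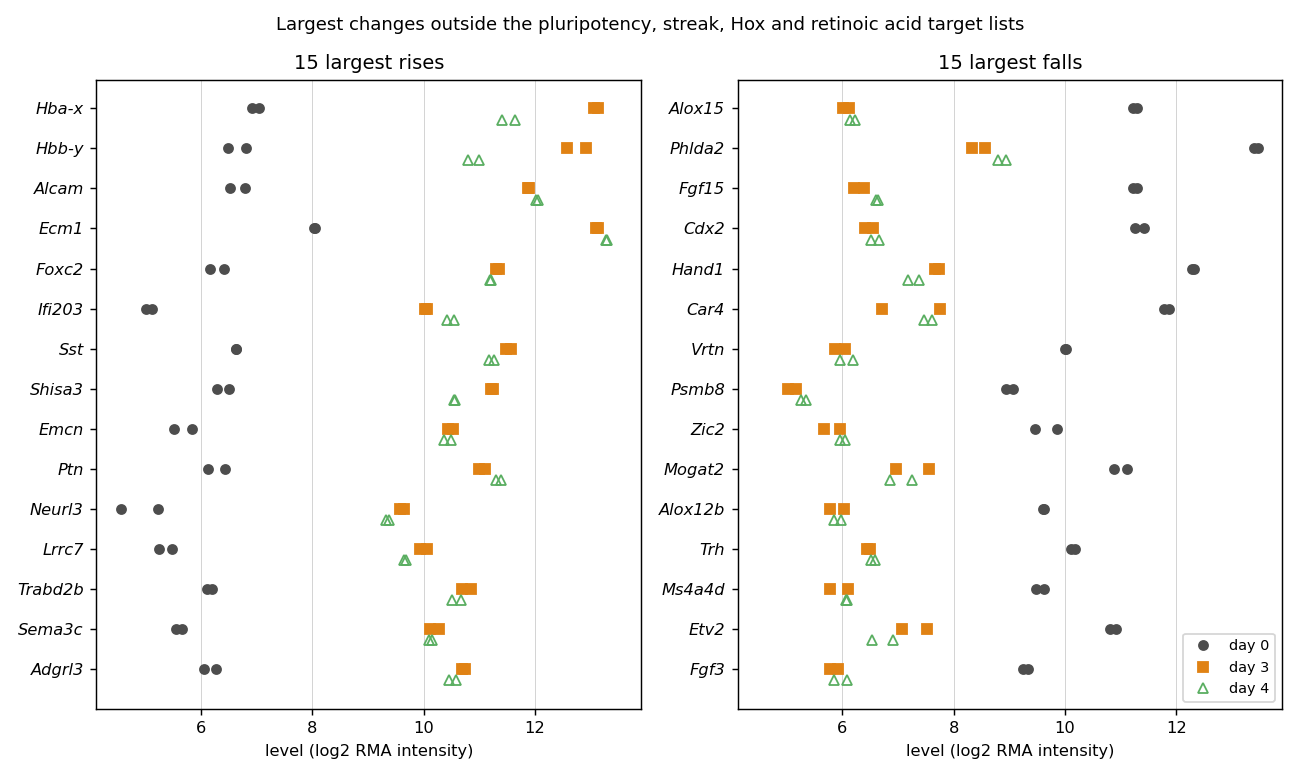
Level (log2 RMA intensity, horizontal axis) of the 15 genes with the largest rises (left) and the 15 with the largest falls (right) outside the pluripotency, streak, Hox and RA target lists, 1 symbol per array, with circles for day 0, squares for day 3 and open triangles for day 4. Day 0 and day 3 do not overlap for any of the 30 genes, and Hba-x and Hbb-y were lower at day 4 than at day 3.

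Wnt receptors mostly rose, and Wnt ligands fell more often than they rose. Wnt ligands are secreted proteins that bind frizzled receptors and stabilise beta-catenin, and in the streak they maintain mesoderm formation. Of 19 measured ligands, 4 rose, 9 fell and 6 did not pass. Wnt3, the ligand that induces the streak, was at 9.85 on both day 0 arrays and at 6.16 and 6.27 at day 3 (−3.63, SE 0.06), and Wnt5a (−1.5) and Wnt8a (−1.02) fell. Wnt2b, a ligand of lateral plate mesoderm, had levels of 6.89 and 6.78 on day 0, 8.88 and 9.02 on day 3 and 10.13 and 10.15 on day 4, and Wnt4, the ligand of kidney and gonad, rose by 1.93.

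Of 16 measured Wnt receptors and co-receptors, 10 rose and 5 fell, against 23.8% and 28.1% of all genes. Fzd10, a frizzled of the primitive streak, stood at 9.74 and 9.68 before RA and at 6.47 and 6.52 after 3 days (−3.21, SE 0.07). Ror1, a receptor tyrosine kinase for Wnt5a, rose by 2.95, and the frizzled genes Fzd4 (2.83), Fzd1 (1.87) and Fzd2 (1.57) rose as well. Among the 29 inhibitors, enhancers and targets, 6 rose and 17 fell. The targets Lef1 (−1.96), a nuclear partner of beta-catenin, Lgr5 (−2.44), the R-spondin receptor, Axin2 (−1.54), the feedback inhibitor, and Dkk1 (−2.65), a secreted antagonist, all fell. In the same list Sfrp1 (probe set 10570957), a secreted frizzled-like inhibitor, had levels of 9.22 and 9.11 at day 0 and of 13.29 and 13.28 at day 3 (4.12, SE 0.06). Rspo1, an enhancer of Wnt signalling from the gonadal and mesothelial lineages, read 6.78 and 6.47 on the day 0 arrays and 9.69 and 10.05 on the day 3 arrays. Among the ligands that did not pass was Wnt1 (−0.07, adjusted p = 0.366).

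FGF ligands fell more often than they rose, and FGF receptors and feedback genes went both ways. FGFs signal through receptor tyrosine kinases and the MAP kinase cascade, and Sprouty and Dusp proteins are induced by that cascade and restrain it. Fgf15 (10559373) stood at 11.29 and 11.23 before RA and at 6.38 and 6.21 after 3 days (−4.97, SE 0.07), and Fgf3 (−3.44) and Fgf8 (−2.39) fell with it. Of 22 measured ligands, 5 rose, 9 fell and 8 did not pass, where 23.8% of all genes rose and 28.1% fell. The rises were led by Fgf11 (2.33) and Fgf14 (2.13), which encode intracellular members of the family that are not secreted ligands. Fgf9 (1.40), a ligand of mesothelium and mesenchyme, came next. Of 21 receptors and feedback genes, 8 rose and 8 fell. Spry4 was at 10.30 and 10.24 at day 0 and at 7.23 on both day 3 arrays (−3.04, SE 0.05), and Dusp4 (−2.78), Etv4 (−2.39) and Etv5 (−2.15), the usual readouts of the pathway, fell. The receptor genes Fgfr1 and Fgfr2 moved little: Fgfr1 changed by −0.05 (adjusted p = 0.52) and Fgfr2 rose by 0.23. Flrt2 (2.34) and Flrt3 (1.72), membrane proteins that bind FGF receptors, and Spry3 (2.13) rose, so the Sprouty genes did not move as 1 group.

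In the transforming growth factor beta superfamily, Nodal, Lefty1 and Lefty2 fell and Tgfb3 rose. Nodal specifies streak and endoderm, Lefty proteins block it, BMPs pattern mesoderm and the TGF-beta isoforms act on matrix and on the change from epithelium to mesenchyme. Lefty2 had levels of 7.57 and 7.92 at day 0 and of 4.75 and 4.50 at day 3 (−3.12, SE 0.13), and Lefty1 (−2.74), Nodal (−2.08), Bmp2 (−2.85) and Bmp4 (−1.74) fell. Tgfb3 (10401673) went through 7.34 and 7.20 on day 0, 11.67 and 11.57 on day 3 and 12.60 and 12.53 on day 4. The change to day 3 was 4.35 (SE 0.07) and that from day 3 to day 4 was 0.95 (adjusted p = 3.97e-04). Tgfb1 fell by 1.80 on the log2 scale and Tgfb2 changed by −0.06 (adjusted p = 0.414), so the 3 TGF-beta genes did not move together. Inha (2.16) and Inhba (1.70), subunits of inhibin and activin, rose. Of the 32 ligand genes, 9 rose and 13 fell. Among 21 receptors and Smads 11 rose and 6 fell, with Bmpr1b (1.66), Smad9 (1.60) and the co-receptor Tgfbr3 (1.22) highest and Eng (−1.43), the endothelial co-receptor, lowest. Ltbp1 (2.32), which anchors latent TGF-beta in the matrix, led the rises among 20 inhibitors, binding proteins and Id genes, and Fst (−2.36), which encodes the activin antagonist follistatin, fell most.

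Of 27 genes of the Notch pathway, in which ligands on one cell activate receptors on its neighbour, 9 rose and 13 fell. Dll3 (−2.74), the ligand of presomitic mesoderm, the target gene Hey2 (−2.57) and the receptor gene Notch1 (−1.34) fell, while Dll4 (2.19), the ligand of arterial endothelium, Hey1 (1.67) and Dlk1 (2.18), an imprinted non-canonical ligand, rose. Of 15 Hedgehog genes, 9 rose and 0 fell. Gas1, a co-receptor, read 8.47 and 8.58 on the day 0 arrays and 11.18 and 11.22 on the day 3 arrays (2.68, SE 0.06), and Gli1 (1.51) and Ptch1 (0.54), which are targets of the pathway as well as parts of it, rose. The ligand genes were not called: Shh stood at 7.10 and 7.11 before RA and at 6.95 and 7.14 after 3 days, and rose between day 3 and day 4, to 7.71 and 7.94 (adjusted p = 0.0016).

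Guidance cues rose more often than they fell. Ephrins and Eph receptors repel cells at boundaries, and 11 of 21 rose and 4 fell, against 23.8% and 28.1% of all genes. Epha3 (10440258) had levels of 5.46 and 5.61 on day 0, 9.94 and 9.80 on day 3 and 9.42 and 9.01 on day 4 (4.34 from day 0 to day 3, SE 0.13), and Epha7 rose by 3.82 and Epha4 by 1.48. Epha1 (−1.45) and Epha2 (−0.94), receptors of early epithelia, fell. The Ephb receptors moved little, with Ephb4 at 0.56, Ephb6 at 0.32 and Ephb3 not passing (−0.09, adjusted p = 0.303). Of 48 genes of the semaphorin, netrin and Slit systems, 23 rose and 14 fell, with Sema3c first, then Slit2 (2.35), Sema3a (2.34), Sema6d (1.87) and the receptors Neo1 (1.86) and Robo1 (1.85). Sema7a (−1.85) and Nrp2 (−1.77), a receptor for semaphorins and for vascular growth factors, fell.

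Growth factor systems of mesenchyme and vessels also changed. Angpt1, the ligand that stabilises vessels through the receptor Tek, had levels of 5.76 and 5.23 at day 0 and of 9.96 and 9.90 at day 3 (4.43, SE 0.15), and its partner Angpt2 rose by 2.67. Pdgfra, the receptor of mesenchyme, rose by 2.06 and its ligand gene Pdgfc by 1.86, while Pdgfa (−1.42) and Pdgfb (−1.84) fell. In all, 11 of 25 genes of the PDGF, VEGF, Kit and angiopoietin systems rose and 9 fell. Of 17 genes of the insulin-like growth factor system, 11 rose and 3 fell. Igfbp5, a secreted binding protein, read 9.44 and 9.08 on the day 0 arrays and 13.06 and 13.07 on the day 3 arrays (3.80, SE 0.11), Igf1 rose by 1.66, and Igf2, at 13.1 at day 0, by 0.39. Of 55 chemokine and chemokine receptor genes, 6 rose, 13 fell and 36 did not pass. In a separate fit of only the genes with a mean of 6 or more, 5 rose and 8 fell. Cxcl12, the ligand that guides migrating progenitors, rose by 1.89 and its receptor Cxcr4 fell by 1.61 on the log2 scale, while the scavenging receptor Ackr3 rose by 2.04.

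**Figure D3:**
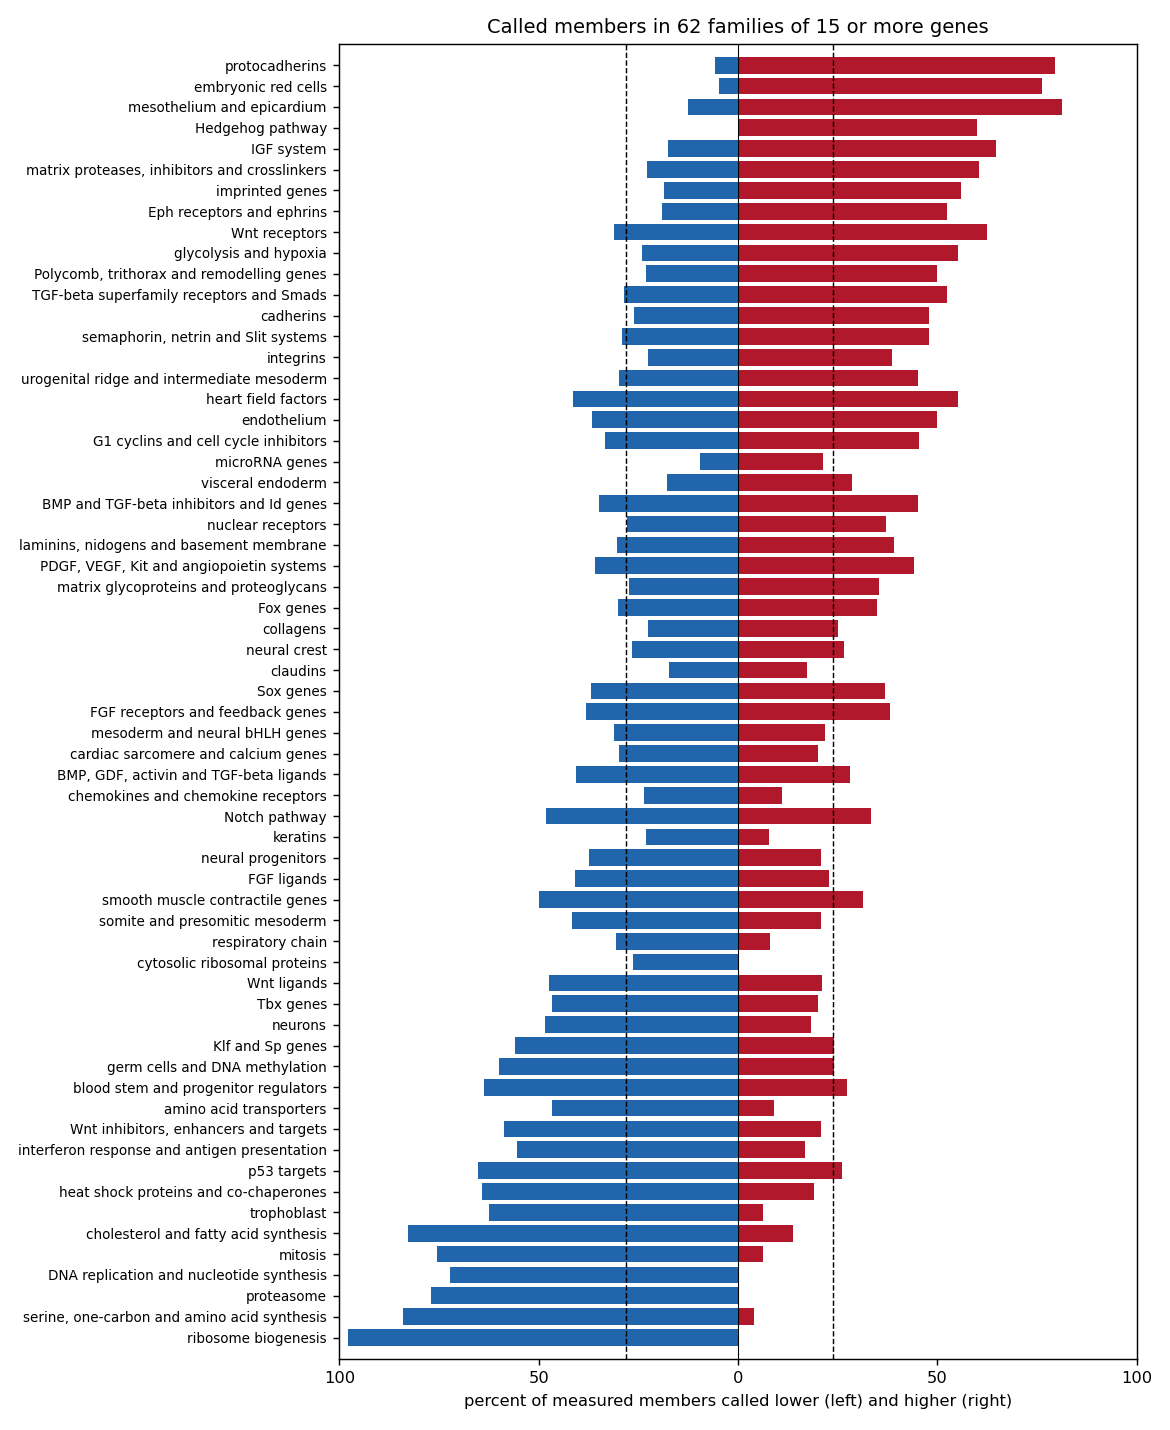
Percent of the measured members called lower (blue, left) and higher (red, right) at day 3 in 62 families of 15 or more genes, ordered by the difference of the 2 shares. Dashed lines mark the shares of all 19938 genes, 28.1% lower and 23.8% higher. The 27 of 34 protocadherins that rose and the 43 of 44 ribosome biogenesis genes that fell stand at the 2 ends.

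Among transcription factors, a few families moved as a block and most split. All 4 Nfi genes, which encode nuclear factor I proteins of maturing mesenchyme and glia, rose. Nfia stood at 7.32 and 7.24 before RA and at 11.18 and 11.11 after 3 days (3.87, SE 0.06), Nfib rose by 3.40, Nfic by 1.35 and Nfix by 1.27. Nfix went on to 10.78 and 10.56 at day 4 from 8.69 and 8.59 at day 3. Of 6 Gata genes 4 rose. Gata5 had levels of 6.73 and 6.92 at day 0 and of 10.81 and 10.85 at day 3 (4.01, SE 0.08), and Gata6 (1.95) and Gata4 (1.77), the other members of the heart and endoderm group, rose too. Gata3 (−1.80), a factor of trophoblast and other tissues, fell, and Gata1, the red cell factor, changed by 0.11 (adjusted p = 0.341).

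Of 43 Fox genes 15 rose, 13 fell and 15 did not pass, against 23.8% of all genes higher and 28.1% lower. Of the Foxp subfamily, Foxp2 read 5.95 and 5.96 on the day 0 arrays and 9.90 and 9.85 on the day 3 arrays (3.92, SE 0.05), and Foxp1 (2.88) and Foxp4 (2.35) rose. Foxo4 (−1.56) and Foxi3 (−1.63) fell. Of 19 Sox genes 7 rose and 7 fell. The 3 members of the group that acts in progenitors after neural or mesenchymal commitment, Sox4 (0.82), Sox11 (1.16) and Sox12 (1.99), rose. The group of pluripotent and early neural cells, Sox2 (−1.88) and Sox3 (−0.60), fell. Of 15 Tbx genes 3 rose and 7 fell. Tbx5, a factor of heart and forelimb, stood at 5.88 and 5.91 before RA and at 9.58 and 9.82 after 3 days (3.80, SE 0.08), and Tbx18, of sinus venosus and epicardium, rose by 3.34, whereas Tbx20 (−2.20) and Tbx3 (−1.53) fell. Nuclear receptors beside Rarb included Nr2f1, which encodes COUP-TF1 and had levels of 6.12 and 5.96 at day 0 and of 10.18 and 10.17 at day 3, and Nr4a1 (−2.30), an immediate early gene. Over the family 16 of 43 rose and 12 fell. Among 11 LIM homeobox genes, Lhx2, a factor of limb, eye, forebrain and other organs, read 6.77 and 7.08 on the day 0 arrays and 11.22 and 11.05 on the day 3 arrays (4.21, SE 0.12), Lhx9 rose by 1.01 and 7 did not pass. Of the 9 Pax genes 7 did not pass and none moved by 2-fold.

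The tissue lists were read beside the marker levels above. Embryonic red cells first appear in the yolk sac and carry embryonic globins, haem enzymes and a membrane skeleton. Of 21 genes, 16 rose and 1 fell, and 9 rose at least 2-fold. Hbb-y went through 6.47 and 6.81 on day 0, 12.92 and 12.57 on day 3 and 10.99 and 10.79 on day 4. Slc4a1 (10391649), the anion exchanger of the red cell membrane, had levels of 6.84 and 6.78 on day 0, 10.55 and 10.52 on day 3 and 8.0 and 7.94 on day 4. Alas2, the rate-limiting haem enzyme of red cells, went from 7.23 and 7.30 to 9.61 and 9.52 and then to 7.48 and 7.23. These genes stood highest at day 3 in 3 days sampled. From day 3 to day 4, 16 of the 21 fell and 1 rose (limma, adjusted p of 0.05 or below, against 12.2% of all genes lower and 15.8% higher), with a median change of −0.71. Hbb-bh1 rose by 3.08, Rhag, an ammonia channel, by 2.02, and Klf1, the factor that drives the programme, by 1.26. The median of the 21 was 0.79, and 0.64 without day 0 replicate 1.

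Regulators of blood stem and progenitor cells fell more often than they rose. Of 22 blood stem and progenitor regulators, 14 fell and 6 rose, against 28.1% and 23.8% of all genes. Lmo2, an adaptor of the stem cell leukaemia complex, stood at 11.40 and 11.41 before RA and at 9.50 and 9.62 after 3 days (−1.84, SE 0.06), and Myb (−1.92), Hhex (−1.88), Runx1 (−1.66), Fli1 (−1.33) and Tal1 (−1.04) fell with it. Cd44, an adhesion receptor, fell by 2.41 on the log2 scale. The 6 rises were led by Cd34 (2.61), a mucin of progenitors and of endothelium, and Mecom (2.37), a zinc finger factor of stem cells. Of the markers of other blood cells, 3 of 7 fell and 4 did not pass, and the means of 5 of the 7 were below 6 at day 3. Of 30 endothelial genes, 15 rose and 11 fell. Etv2, the factor that starts the lineage, had levels of 10.80 and 10.91 at day 0 and of 7.06 and 7.53 at day 3 (−3.56, SE 0.17), and the receptors Kdr (−0.94), Flt1 (−0.60) and Aplnr (−1.69) fell. Eng, given above, was another of the 11. Among the rises, Emcn (10496359) read 5.51 and 5.83 on the day 0 arrays and 10.44 and 10.53 on the day 3 arrays (4.81, SE 0.11), Lyve1 rose by 2.76, Cldn5 by 1.85, Plvap by 1.65 and Pecam1 by 0.68.

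Mesothelium is the epithelium that covers the body cavities and, over the heart, forms the epicardium, a source of RA in the embryo. Of 16 genes, 13 rose, 2 fell and 1 did not pass, with 10 at least 2-fold higher and a median of 2.13. Wt1 (10474295), the factor that marks mesothelium, epicardium and the urogenital ridge, stood at 7.67 and 7.47 before RA and at 12.04 and 12.10 after 3 days (4.50, SE 0.08). Upk3b, a uroplakin of mesothelial cells, had levels of 7.03 and 7.05 at day 0 and of 11.15 and 11.35 at day 3 (4.21, SE 0.08), and Bnc1, a zinc finger factor, at 7.73 and 7.31 and then at 11.53 and 11.62 (4.06, SE 0.13). All 3 were flat to day 4, with changes of 0.02, −0.05 and −0.03. Tcf21, a factor of epicardium and mesenchyme, rose by 3.48 and then by a further 1.02 (adjusted p = 7.88e-04). Aldh1a2, the enzyme that makes RA, rose by 3.98. Msln, which encodes the mature surface protein mesothelin, did not pass, at 5.46 and 5.65 at day 0 and 5.43 and 5.77 at day 3, and the epithelial keratin Krt8 fell by 1.62 on the log2 scale.

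**Figure D4:**
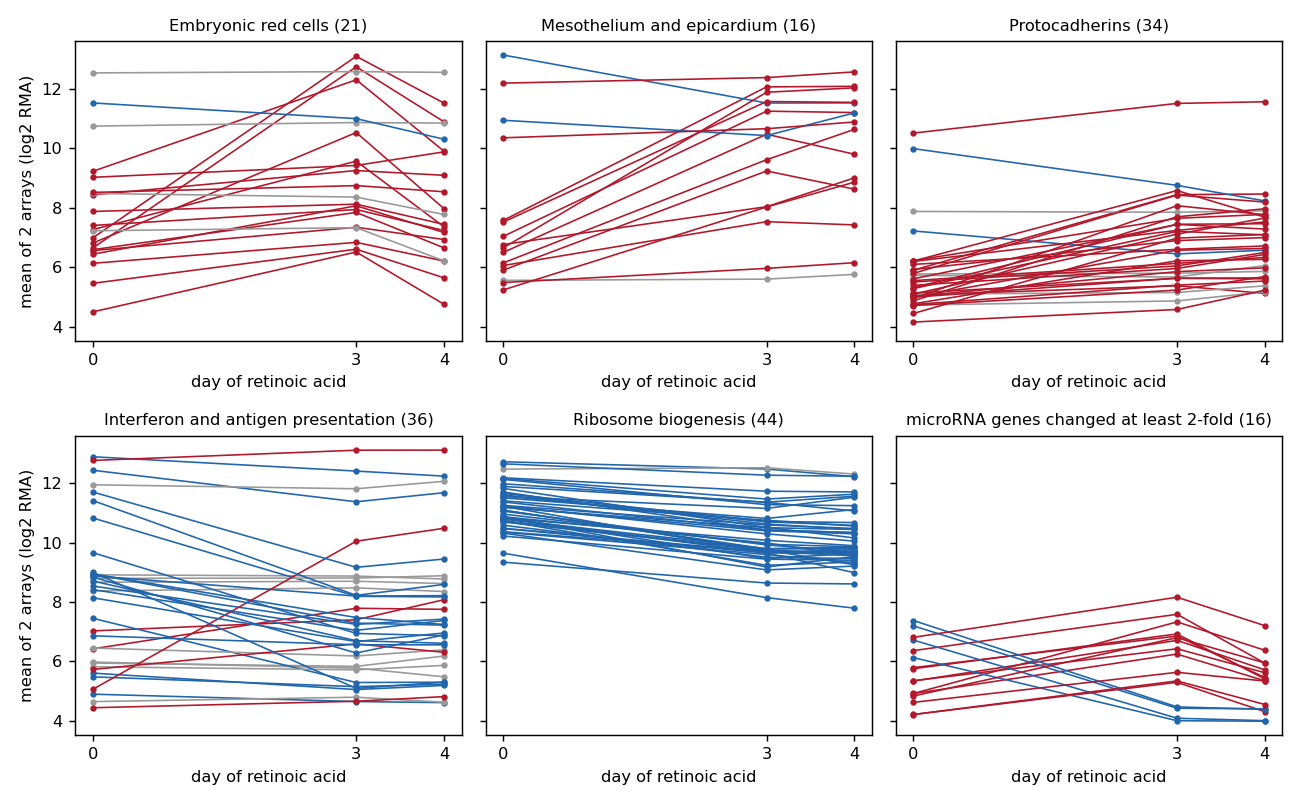
Mean of the 2 arrays (log2 RMA intensity, vertical axis) at days 0, 3 and 4 for 6 gene groups, 1 line per gene, red for genes called higher and blue for genes called lower at day 3 than at day 0, grey for the others. Red cell genes and the microRNA genes that rose peaked at day 3, mesothelial genes and protocadherins stayed up, and ribosome biogenesis genes stayed down.

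Heart field factors changed on a large scale in both directions. Of 29 factors, 16 rose and 12 fell, 11 and 7 of them at least 2-fold. Tbx5, Tbx18, Gata5 and Foxc2, given above, were among the largest rises, and Mef2c rose by 2.0. The falls included Mesp1 (−2.57), the factor of the first cardiac mesoderm, and Nfatc1 (−1.94), and Nkx2-5 fell by 0.60 on the log2 scale. Of 30 sarcomere and calcium genes of heart muscle, 6 rose, 9 fell and 15 did not pass, with 2 higher and 4 lower by at least 2-fold (20.0%, against 9.23% of all genes). Myh6, the cardiac myosin heavy chain, read 5.97 and 6.00 on the day 0 arrays and 5.86 and 5.94 on the day 3 arrays (adjusted p = 0.241), and Tnnc1 (−2.92), the slow and cardiac troponin C, and Actc1 (−1.19), cardiac actin, fell. Tnnt2, the cardiac troponin T, rose by 0.65 and Slc8a1, the sodium-calcium exchanger, by 1.40. Among 16 smooth muscle genes 8 fell and 5 rose. Pdlim3, an actin-associated protein, went through 11.20 and 11.15 on day 0, 8.14 and 8.13 on day 3 and 9.82 and 9.74 on day 4, and Tagln (−1.39) and Cnn1 (−1.33) fell.

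Of 20 genes of the urogenital ridge and intermediate mesoderm, 9 rose and 6 fell. Osr1, an early factor of intermediate mesoderm, stood at 6.73 and 6.54 before RA and at 9.84 and 10.30 after 3 days (3.43, SE 0.15), and Emx2 rose by 3.34 and Eya1 by 1.41. The kidney factors Pax2 (0.09, adjusted p = 0.3) and Pax8 (0.03, adjusted p = 0.782) did not pass, and Sall1 fell by 2.65 on the log2 scale. Of 24 somite and presomitic genes, 5 rose and 10 fell. Meox1, a factor of formed somites, rose by 2.64 and then changed by −0.70 to day 4 (adjusted p = 0.00798), while Msgn1, a master factor of presomitic mesoderm, fell by 2.55 on the log2 scale. The muscle factor Myod1 did not pass (−0.12, adjusted p = 0.148).

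Trophoblast and neural lists had more falls than rises, where 28.1% of all genes fell and 23.8% rose. The visceral endoderm list had more rises, but its median was 0.03 and 46.4% of it was called, against 51.9% of all genes. In the visceral endoderm list 8 of 28 genes rose, 5 of them at least 2-fold, 5 fell, or 3 without day 0 replicate 2 or without day 3 replicate 1, and 15 did not pass. Apoa1 (1.73) and Rbp4 (1.03), secreted carriers of lipid and retinol, and the endocytic adaptor Dab2 (1.61) rose. Afp had levels of 5.57 and 5.55 at day 0 and of 5.39 and 5.56 at day 3, and Alb at 4.86 and 4.90 and then at 4.81 and 4.93, so these defining products of the tissue stayed at the floor of the scale. Of 24 neural progenitor genes, 5 rose (3 without day 0 replicate 1 or without day 3 replicate 2) and 9 fell, led by Msx2 (−3.28) and Msx1 (−3.11), which roof plate shares with other tissues. Of 33 neuronal genes, 6 rose, 3 of them at least 2-fold, and 16 fell. Dcx, a microtubule protein of migrating neurons, read 6.01 and 6.39 on the day 0 arrays and 8.72 and 8.66 on the day 3 arrays (2.49, SE 0.11). Stmn2, another microtubule regulator of neurons, had levels of 10.59 and 10.66 on day 0, 8.77 and 8.80 on day 3 and 10.30 and 10.12 on day 4, and Ina (−2.81) and Prph (−2.58), neuronal filaments, fell. Of 16 trophoblast genes 10 fell and 1 rose, with Cdx2, Hand1 and Tfap2c (−1.93) among the falls and the placental products Tpbpa and Psg17 below 6 at both days.

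**Figure D5:**
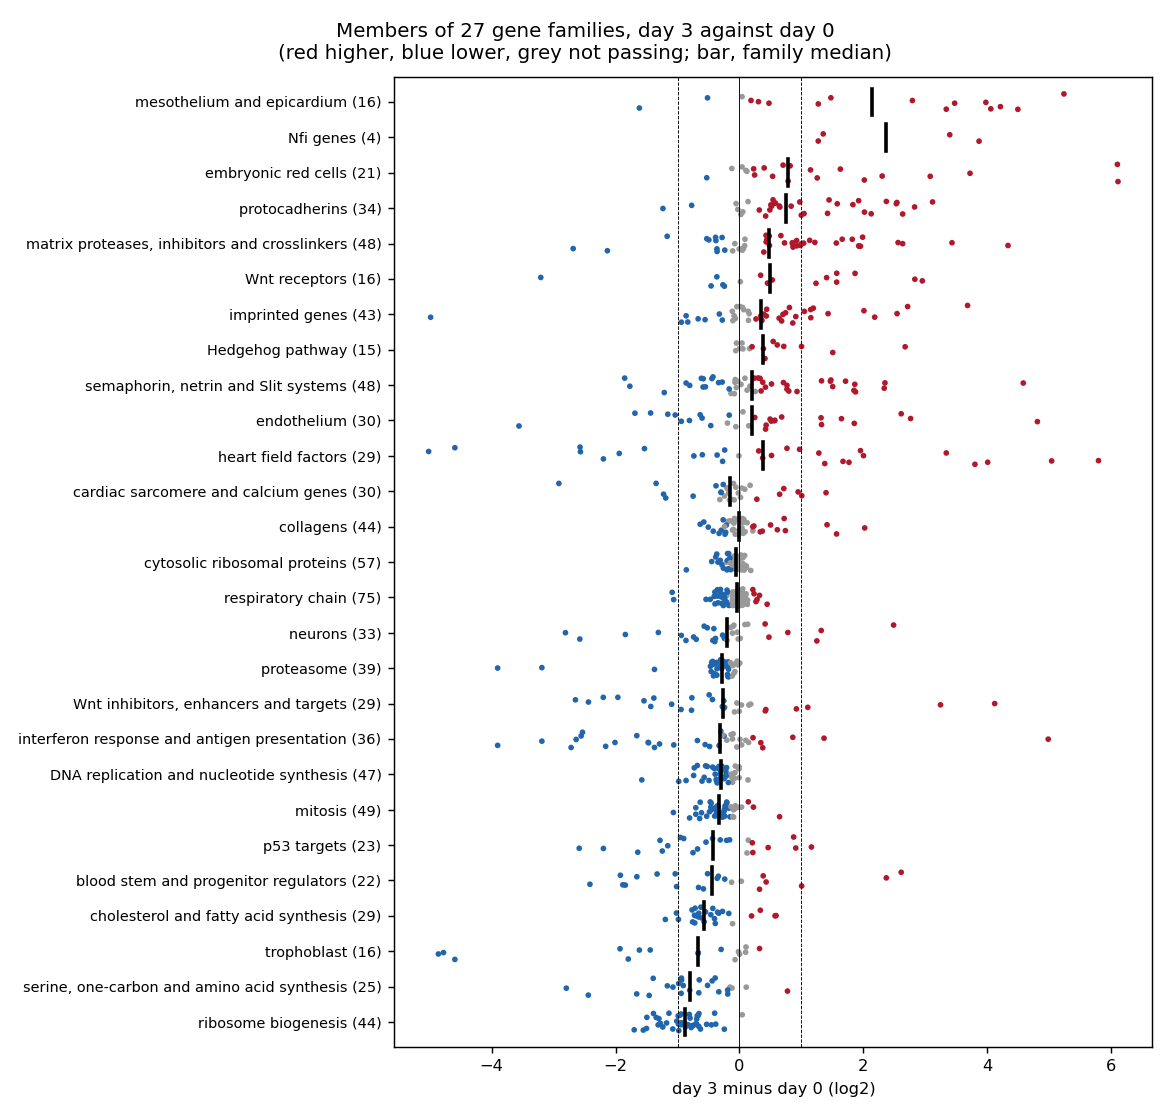
Log2 change from day 0 to day 3 (horizontal axis) of every measured member of 27 families, 1 point per gene, red for members called higher, blue for members called lower, grey for the others, with a black bar at the family median and the number of members in brackets. Points are jittered vertically only. Medians run from 2.37 for the 4 Nfi genes and 2.13 for mesothelium to −0.88 for ribosome biogenesis.

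Large changes among extracellular matrix genes were mostly in glycoproteins and enzymes, and few were in collagens. Of 51 glycoproteins and proteoglycans, 18 rose and 14 fell, and 12 rose at least 2-fold against 3 that fell so far. Ecm1 stood at 8.03 and 8.05 before RA and at 13.13 and 13.09 after 3 days (5.07, SE 0.05). Postn, which encodes periostin of mesenchyme, went through 5.68 and 5.28 on day 0, 9.25 and 9.04 on day 3 and 10.16 and 9.85 on day 4 (3.67 from day 0 to day 3, SE 0.15). Dcn (2.55), a small proteoglycan, Tgfbi (2.10) and Emilin1 (1.99) rose, and Bgn (−2.62), the relative of Dcn, and Fn1 (−1.5), fibronectin, fell. Fn1 had levels of 13.41 and 13.42 at day 0 and of 11.94 and 11.89 at day 3.

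Of 48 matrix proteases, inhibitors and crosslinking enzymes, 29 rose and 11 fell. Plat, the tissue plasminogen activator, read 7.72 and 7.27 on the day 0 arrays and 11.80 and 11.86 on the day 3 arrays (4.34, SE 0.13), and Adamts1, a protease of versican, rose by 3.43, Mmp16 by 2.64 and Adamts12 by 2.56. Mmp9, a gelatinase, stood at 8.66 and 8.69 before RA and at 5.94 and 6.04 after 3 days (−2.69, SE 0.06), and Loxl4 fell by 2.13 on the log2 scale, while its relatives Lox (1.95) and Loxl1 (1.94), which crosslink collagen and elastin, rose. Of 44 collagens, 11 rose, 10 fell and 23 did not pass, and the 10 were 6 without day 0 replicate 2 and 5 without day 3 replicate 1. The fibrillar genes Col3a1 (2.02) and Col1a2 (1.41) rose and Col1a1 fell by 0.42 on the log2 scale, so the 2 chains of type I collagen went opposite ways. The basement membrane chains Col4a1 (−0.63) and Col4a2 (−0.58) fell together. From day 3 to day 4, 20 of the 44 rose and 0 fell, against 15.8% and 12.2% of all genes. Among 23 laminin and basement membrane genes, Fras1 (2.45), Lama2 (1.80) and Frem1 (1.74) rose and Lama4 fell by 1.60 on the log2 scale.

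Among adhesion molecules cadherins rose more often than they fell, and most keratins did not pass. Cdh1, E-cadherin of epithelia, had levels of 10.55 and 10.49 at day 0 and of 8.30 and 8.53 at day 3 (−2.11, SE 0.12), while Cdh2 (0.33), N-cadherin, and Cdh11 (0.44), the cadherin of mesenchyme, rose a little. Larger rises were those of Cdh8 (3.64), Cdh10 (3.39) and Cdh6 (2.41), classical cadherins of brain and kidney. In all, 11 of 23 cadherins rose and 6 fell, against 23.8% and 28.1% of all genes. Itgb3, an integrin subunit that binds vitronectin, read 7.42 and 7.47 on the day 0 arrays and 9.91 and 9.78 on the day 3 arrays (2.40, SE 0.08), and Itga8 rose by 1.23 among 31 integrin genes, of which 12 rose (7 without day 3 replicate 1). Of 52 keratins 12 fell, 4 rose and 36 did not pass, so 30.8% were called against 51.9% of all genes. In the separate fit of only the genes with a mean of 6 or more, 6 fell and 1 rose. Krt8 stood at 13.14 and 13.15 before RA and at 11.46 and 11.59 after 3 days, and its partner Krt18 fell by 1.44 on the log2 scale. The summed epithelial markers, given above, were lower in the same samples, and their part in these falls was not tested.

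Protocadherins rose as a family. They are cadherin-like surface proteins, and the beta genes lie side by side in 1 cluster and are best known from neurons, where their combinations give cells an identity. Of 34 measured genes, 27 rose, 2 fell and 5 did not pass, against 23.8% and 28.1% of all genes, and 14 rose at least 2-fold, against 5.14%. Pcdhb21 (10455135) had levels of 4.96 and 4.95 at day 0 and of 8.0 and 8.14 at day 3 (3.12, SE 0.06). Pcdhb19 (2.83), Pcdhb22 (2.64) and Pcdhb18 (2.53) followed, and of the members outside the cluster Pcdh11x rose by 2.54 and Pcdh17 by 2.37. The 2 that fell were Pcdh7 (−1.24) and Pcdh1 (−0.77). Most members were dim at day 0, and the beta genes are close copies of each other, so a probe set of one can take up signal of another and the number of separate genes that rose is uncertain. The median was 0.74 over all 34. In the separate fit of only the genes with a mean of 6 or more it was 1.58, with 18 higher and 2 lower. That mean is over all 6 arrays, so a member dim at day 0 could pass only through its later arrays. The larger median thus cannot be read as a stronger rise. The change from day 3 to day 4 was small, with a median of 0.11. Summed neuronal markers, mostly Stmn2 at day 0, went from 11.1 to 10.4 in the same samples, and their part in this result was not tested.

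Genes for making ribosomes fell almost without exception. Ribosome biogenesis is the set of nucleolar factors that transcribe, cut and modify ribosomal RNA, and it is high in fast-growing cells. Of 44 genes, 43 fell and 1 did not pass, and 14 fell at least 2-fold, against 4.09% of all genes, with a median of −0.88. Rrp9 (10588522), a U3 small nucleolar RNA-binding protein, read 10.88 and 10.87 on the day 0 arrays and 9.25 and 9.11 on the day 3 arrays (−1.70, SE 0.06). Bop1 (−1.55), of large subunit processing, Polr1e (−1.5), a subunit of RNA polymerase I, and Rrp12 (−1.5) followed. Npm1, which encodes the abundant nucleolar chaperone, was the exception, at 12.42 and 12.52 at day 0 and 12.53 and 12.50 at day 3 (adjusted p = 0.564). The structural proteins of the ribosome barely moved: of 57 cytosolic ribosomal protein genes 15 fell and 42 did not pass, with a median of −0.06 and 0 changed by 2-fold. That count of 15 was 8 without day 0 replicate 1 or day 3 replicate 1 and 9 without day 0 replicate 2.

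Myc, the growth factor-induced activator of many of these genes, was at 12.02 on both day 0 arrays and at 9.52 and 9.54 at day 3 (−2.49, SE 0.05). Its relative Mycn was at 10.25 and 10.26 and then at 10.62 and 10.67 (0.39), and its antagonists Mxd4 (1.94), Mxi1 (0.93) and Mxd1 (0.68) rose. The promoter of Nop2, a methyltransferase of ribosomal RNA that fell by 1.28 on the log2 scale, is shown for its E-box, the CACGTG that Myc and its relatives bind, in capitals 60 bases before the start. It is chr6:125131753-125131932 (plus strand, RefSeq, GRCm38.p6).
Nop2: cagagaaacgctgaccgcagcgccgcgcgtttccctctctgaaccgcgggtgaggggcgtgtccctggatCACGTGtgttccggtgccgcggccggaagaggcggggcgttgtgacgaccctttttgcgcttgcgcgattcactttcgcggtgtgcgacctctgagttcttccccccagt
CACGTG was in 7 of the 37 ribosome biogenesis promoters in the table (18.9%) and in 9.5% of the 15614 promoters. All 7 were of genes that fell, as did 43 of the 44 genes of the list, so their direction says nothing of the element. The other promoters of the list lack these letters in this window.

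Cell division genes fell by less. Of 47 genes of DNA replication and nucleotide synthesis 34 fell and 0 rose, with a median of −0.30 and only Orc1, an origin recognition subunit, past 2-fold (−1.58, SE 0.06). Of 49 mitosis genes 37 fell, 3 rose (1 without day 0 replicate 1 or without day 3 replicate 1) and 9 did not pass, with a median of −0.33. Espl1, which encodes the protease separase, stood at 10.28 and 10.36 before RA and at 9.20 and 9.31 after 3 days (−1.07, SE 0.06), while Top2a was flat at 12.01 and 12.02 and then 12.09 and 12.01 (adjusted p = 0.631). The promoter of Espl1, chr15:102296163-102296342 (plus strand, RefSeq, GRCm38.p6), is shown for the TTTGAA in capitals, the core of the element that represses mitotic genes outside mitosis, 27 bases before the start.
Espl1: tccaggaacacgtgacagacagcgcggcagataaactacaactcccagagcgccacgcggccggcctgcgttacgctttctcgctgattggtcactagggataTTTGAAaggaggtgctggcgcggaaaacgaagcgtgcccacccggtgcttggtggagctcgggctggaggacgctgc
TTTGAA on either strand was in 30 of 41 mitosis promoters (73.2%) and in 17.3% of all promoters, and CCAAT in 29 of 41 (70.7%) and in 41.7%. Of the 30 genes with TTTGAA, 23 fell and 1 rose, and of all 49 genes of the list 37 fell and 3 rose.

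Regulators of the cell cycle before DNA replication went both ways, with 15 of 33 higher and 11 lower. Ccnd1, the cyclin that answers growth factors, had levels of 12.06 and 12.12 at day 0 and of 9.61 and 9.67 at day 3 (−2.45, SE 0.06), and rose by 0.39 to day 4. The inhibitors and pocket proteins Rbl2 (1.98), Cdkn2c (1.30), Cdkn1c (1.05) and Cdkn1b (0.76) rose. Of 23 p53 targets 15 fell and 6 rose, with Gadd45g (−2.59), Perp (−2.20) and Gadd45b (−1.64) lowest and Sesn1 (1.16) highest. Of 42 heat shock and co-chaperone genes 27 fell and 8 rose, led by the small heat shock genes Hspb1 (−2.11) and Cryab (−1.46), while Dnajb4 rose by 1.65 and Hspa8 did not pass (−0.07, adjusted p = 0.264).

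Among metabolic genes, most members of the lists of amino acid synthesis and of lipid synthesis fell. The first of these lists also holds enzymes of breakdown. Of 25 genes of serine, one-carbon and amino acid synthesis, 21 fell and 1 rose, with a median of −0.80. Bcat1, which starts the breakdown of branched-chain amino acids, read 11.51 and 11.53 on the day 0 arrays and 8.69 and 8.76 on the day 3 arrays (−2.80, SE 0.05), and Gldc (−2.44), of the glycine cleavage system, and Mthfd2 (−1.66), of mitochondrial folate metabolism, fell. Gpt2 (0.78), alanine transaminase, was the 1 that rose. Of 29 genes of cholesterol and fatty acid synthesis, 24 fell and 4 rose, by less, with a median of −0.57 and Idi1, the isopentenyl isomerase, lowest (−1.20). The 3 largest rises there, Fads1 (0.59), Fads2 (0.57) and Scd2 (0.34), are desaturases and no part of the sterol pathway. The other rise was that of Tm7sf2 (0.20), a gene of the sterol pathway. CCAAT was in 20 of 23 promoters of this list (87.0%) and in 41.7% of all promoters. Of the 20, 18 were of genes that fell, as did 24 of the 29 genes of the list. Of 45 amino acid transporters 21 fell and 4 rose, with Slc7a3 (−2.09), Slc7a8 (−1.77) and Slc7a5 (−1.74) lowest. Glycolysis and hypoxia genes rose more often, with 16 of 29 higher and 7 lower, against 23.8% and 28.1% of all genes. Bnip3 (1.93), Pdk1 (1.45), Adm (1.39) and Egln1 (1.24), known targets of hypoxia-inducible factor, rose, and the glucose transporter genes Slc2a3 (−1.77) and Slc2a1 (−0.82), also known targets of it, fell. The respiratory chain was nearly flat, with 23 of 75 lower, 6 higher (12 with cyclic loess) and a median of −0.03 (−0.08 without day 0 replicate 2). At day 4, 41 of the 75 were higher than at day 3, against 15.8% of all genes.

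Among chromatin regulators, the DNA methyltransferase genes did not move together. Dnmt3b, the de novo methyltransferase of the epiblast, stood at 9.55 and 9.75 before RA and at 7.31 and 7.47 after 3 days (−2.26, SE 0.09), and its cofactor gene Dnmt3l fell by 2.64 on the log2 scale, while Dnmt3a rose by 1.06 and Dnmt1 did not pass (−0.03, adjusted p = 0.68). The demethylases Tet2 (1.92) and Tet3 (1.31) rose. In the germ cell and DNA methylation list as a whole 6 of 25 rose and 15 fell, with Dppa2 (−3.08) and Prdm14 (−1.79) among the falls. Of 52 Polycomb, trithorax and remodelling genes 26 rose and 12 fell. Smarcd3, the subunit of cardiac remodelling complexes, rose by 1.94, Chd3 by 1.82 and Bmi1 by 1.52, and Pcgf5 had levels of 10.19 and 10.09 at day 0 and of 7.56 and 7.68 at day 3 (−2.53, SE 0.07).

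Of 43 imprinted genes, which are expressed from 1 parental copy and often act on growth, 24 rose and 8 fell. Plagl1, a zinc finger factor that restrains proliferation, read 8.83 and 8.98 on the day 0 arrays and 12.60 and 12.58 on the day 3 arrays (3.68, SE 0.06). Zim1 (2.72), Dlk1, Ppp1r9a (2.01) and Nnat (1.43) rose, and the fall of Phlda2 by 4.99 on the log2 scale was the only one past 2-fold. Arrays do not tell the parental copies apart. The bright genes Mest (0.05, adjusted p = 0.452) and Peg10 (−0.09, adjusted p = 0.195) did not pass.

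The genes of interferon response and antigen presentation fell more often than they rose. In cells exposed to interferon, STAT and IRF factors switch on an immunoproteasome, peptide transporters and antiviral sensors. Of 36 genes, 20 fell, 6 rose and 10 did not pass, and 14 fell at least 2-fold, with a median of −0.32. Of all genes 28.1% fell, 23.8% rose and 4.09% fell at least 2-fold. The median of the list was −0.44 without day 0 replicate 2. In the separate fit of only the genes with a mean of 6 or more it was −0.87, with 17 lower and 5 higher. That mean is over all 6 arrays, so a gene bright at day 0 alone could pass the limit. The larger median thus cannot be read as a stronger fall. Psmb8 (10444258), a catalytic subunit of the immunoproteasome, stood at 9.06 and 8.94 before RA and at 5.17 and 5.02 after 3 days (−3.91, SE 0.08). Psmb10, another of the 3 special subunits, was at 11.47 and 11.36 and then at 8.32 and 8.13 (−3.19), and Psmb9 fell by 1.37 on the log2 scale. They were the only members of the proteasome list past 2-fold: of its 39 genes 30 fell, with a median of −0.28. Tapbp (−2.53), which encodes the peptide-loading chaperone tapasin, and the transporter genes Tap1 (−1.66) and Tap2 (−1.47) fell, as did Irf1 (−2.64), the factor that activates them. Tapbp was at 11.68 and 11.73 at day 0 and at 9.17 on both day 3 arrays. B2m, the shared light chain of class I molecules, did not pass, at 11.90 and 11.99 at day 0 and 11.82 and 11.80 at day 3 (adjusted p = 0.0885).

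A few members of the same list rose. Ifi203 (10360391), a DNA-binding protein of the interferon-inducible p200 family, had levels of 5.11 and 5.01 on day 0, 10.03 and 10.06 on day 3 and 10.54 and 10.42 on day 4 (4.99 from day 0 to day 3, SE 0.07), and Ifit2 rose by 1.37. The core of the element through which IRF factors act, GAAANNGAAA on either strand, was in 15 of 30 promoters of the list, 4 of genes that rose and 6 of genes that fell, and in 3.89% of all promoters. The promoters of Ifi203, which rose most, and of Gbp3, a guanylate-binding protein that fell from 8.95 and 8.73 to 6.40 and 6.17 (−2.56, SE 0.10), are shown with the match in capitals. Ifi203 is chr1:173942443-173942622 (minus strand), with 1 match 35 bases before the start. Gbp3 is chr3:142559914-142560093 (plus strand), with 2 overlapping matches on the reverse strand that begin 45 and 39 bases before the start.
Ifi203: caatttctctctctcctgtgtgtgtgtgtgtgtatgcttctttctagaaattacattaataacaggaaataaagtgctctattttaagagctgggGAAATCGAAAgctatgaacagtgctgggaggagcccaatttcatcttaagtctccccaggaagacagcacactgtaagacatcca
Gbp3: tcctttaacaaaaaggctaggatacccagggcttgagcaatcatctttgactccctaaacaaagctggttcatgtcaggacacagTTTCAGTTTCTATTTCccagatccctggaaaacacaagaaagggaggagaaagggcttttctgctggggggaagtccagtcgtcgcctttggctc
Genes with this element in their promoters thus moved in both directions within the list. TTTGAA and GAAANNGAAA can share the letters GAA, and the other motifs named here do not contain each other.

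MicroRNAs are short RNAs that pair through their seed, bases 2 to 8, with sites in messenger RNAs and lower their output. The array has probe sets for 296 microRNA genes, which measure the hairpin or its longer precursor and not the mature RNA. Of these, 63 rose, 28 fell and 205 did not pass, and 12 rose and 4 fell at least 2-fold. Thus 30.7% were called, against 51.9% of all genes, and 5.41% at least 2-fold, against 9.23%. Without day 0 replicate 2 the rises were 41, without day 3 replicate 1 the falls were 18, and over genes with a mean of 6 or more alone the counts were 28 and 16, so the numbers turn on single arrays and on dim genes. The 4 large falls were the Mir302 genes of 1 cluster, the one that pluripotent cells are known for, and Mir367 of the same cluster fell by 0.93 on the log2 scale. Mir302d (10495929) had levels of 7.16 and 7.59 at day 0 and of 4.49 and 4.45 at day 3 (−2.91, SE 0.13), Mir302c changed by −2.77, Mir302a by −2.63 and Mir302b by −2.12. Larp7, the gene whose intron holds the cluster, fell by only 0.43 on the log2 scale (SE 0.05). The mature sequences of 3 of the Mir302 genes are shown (RefSeq, GRCm38.p6), with the seed in capitals.
miR-302b-3p: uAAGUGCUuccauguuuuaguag
miR-302d-3p: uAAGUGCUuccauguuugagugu
miR-302c-3p: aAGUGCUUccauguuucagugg
The first and second share the seed AAGUGCU, and the third is listed from 1 base further on, so its seed reads AGUGCUU.

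The microRNA genes that rose include those of differentiated cells. Mir181b-1 (10350341) went through 4.98 and 4.86 on day 0, 7.41 and 7.26 on day 3 and 6.39 and 6.36 on day 4 (2.41 from day 0 to day 3, SE 0.07), and Mir181b-2, which gives the same mature RNA, rose by 1.33. Mir99a rose by 1.96, Mirlet7e by 1.35, Mirlet7c-1 by 1.13, Mir10b, which lies in a Hox cluster, by 1.08 and Mir130a by 1.06. Mir145a rose by 1.37, and Mir218-1, in an intron of Slit2, by 1.08. The sequences are grouped by seed, to show that both let-7 genes share one and that miR-99a, its neighbour in the genome, does not.
let-7c-5p: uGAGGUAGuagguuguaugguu
let-7e-5p: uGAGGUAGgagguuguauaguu
miR-99a-5p: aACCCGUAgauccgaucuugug
miR-10b-5p: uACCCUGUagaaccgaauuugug
miR-181b-5p: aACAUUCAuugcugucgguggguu
miR-130a-3p: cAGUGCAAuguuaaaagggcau
Mir99a at chr16:77598940-77598961 and Mirlet7c-1 at chr16:77599672-77599693 (plus strand) lie close together. All the microRNA genes named here that rose were lower again at day 4, by 0.79 on the log2 scale for Mirlet7c-1 to 1.40 for Mir130a. Of all 296 genes 76 were lower and 6 higher at day 4 than at day 3, against 12.2% and 15.8% of all genes tested. The median over all probe sets was 6.85 and 6.83 on the day 3 arrays and 6.69 and 6.73 on the day 4 arrays. The part of that shift in the lower microRNA levels was not tested.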

How the data were processed

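EB samples of day 0, day 3 and day 4, 2 arrays each, had been hybridised to Affymetrix Mouse Gene 1.0 ST arrays. The deposited values are log2 intensities per probe set that the authors made by RMA in Partek (version not given in the sources used here), which corrects background, quantile normalizes and summarises probes; a change in total RNA per cell is thus not seen and dim signals are compressed. Of 35557 probe sets, 21789 had 1 gene symbol in GEO's platform annotation, 1621 had several and 12147 were unnamed there; of those with 1 symbol 21698 matched a RefSeq gene. The brightest probe set over the 6 arrays stood for a gene, which left 19938 genes. Groups came from the sample titles. Means per day were fitted to all 6 arrays in limma 3.58.1 (R 4.3.3), with 3 residual and 4.07 prior degrees of freedom, and p-values were Benjamini-Hochberg adjusted over all genes; adjusted p-values in the text, including those of day 4 against day 3, are from this fit. The gene lists, and the members they hold, were chosen with earlier results of these data known, so their counts are descriptions and were not tested as sets. Named were the 15 largest rises and the 15 largest falls outside the pluripotency, streak, Hox and RA target lists and predicted genes, the 5 largest each way among genes whose mean was at least 10, up to 4 called rises, 4 called falls and 2 bright genes not passing per list, and founding members of a pathway; some further members were chosen after their values were seen. Alternatives were the arrays in the fit, a replicate block, median centring, cyclic loess, a limit of 6 on the mean, trend and robust moderation, the mean of probe sets and leaving out each array. Promoters (250 bases before to 50 after the start, 15614 genes) and mature microRNAs are RefSeq sequences on GRCm38.p6, searched on both strands, and except for the AGGTCA repeat the motifs were chosen after values were seen.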

Additional observations from a re-analysis of the deposited data

How the results depend on the processing

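Of 697 named genes, 551 were called at day 3 against day 0, and 527 of these kept their call and direction without each array in turn and under each alternative in which they had a value, with none reversed; 655 of the 697 had one under the limit of 6 on the mean, and all 697 under the others. With the replicate block the number of called genes was 10359, against 10345 without it. Same-numbered samples of different days deviated together only weakly (correlations of 0.0342 to 0.0834). A shift shared by the same numbers was thus not seen, but whether the numbers of the titles pair the samples cannot be read from this. The total was 10212 with the 4 arrays of day 0 and day 3 alone, 10474 with median centring, 10134 with cyclic loess, 9675 over genes with a mean of 6 or more, 10741 with trend and robust moderation and 10343 with the mean of all probe sets, and 8741 to 10212 without 1 array. Rises of at least 2-fold numbered 984 to 1059 and falls 792 to 848 without 1 array. Scaling moved the split more than the total, with 42.5% of calls higher with median centring and 51.2% with cyclic loess, against 45.9%. Families with small changes moved most: 26 cytosolic ribosomal protein genes fell with trend and robust moderation against 15, and 15 respiratory chain genes rose against 6. With 2 arrays a day and 3 residual degrees of freedom, the number of arrays limits the precision, and genes near the floor of the scale have compressed changes.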

Other observations

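A few families have no place in the account above. Of 25 Klf and Sp genes, zinc finger factors that bind GC-rich promoters, 14 fell and 6 rose (percent called over all genes 51.9), with Klf8 (−2.21), Klf5 (−2.21), Sp6 (−2.03) and Klf6 (−1.63) lowest. Sp5 (−1.38), a target of Wnt signalling, fell with the Wnt targets named above. Of 10 Meis, Pbx and Pknox genes, the homeodomain partners of Hox proteins, 7 rose and 2 fell. Meis2 had levels of 8.75 and 8.73 at day 0 and of 12.78 and 12.79 at day 3 (4.04), and Pknox2 rose by 1.48. Among 6 Irx genes Irx5 (1.28) and Irx3 (0.97), which are neighbours in the genome, rose and Irx4, the ventricular member, fell by 0.74 on the log2 scale. Of 32 bHLH factors of mesoderm and nerve cells 7 rose, 10 fell and 15 did not pass, and the rises included Tcf21, Scx (1.0), a tendon factor that rose by a further 1.01 to day 4, Atoh8 (0.91) and Twist1 (0.91). The proneural genes Neurog1 (−0.09), Neurog2 (0.05) and Atoh1 (0.03) did not pass.

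Of 15 neural crest genes 4 rose, 4 fell and 7 did not pass, close to the shares of all genes (23.8% higher and 28.1% lower). Ednrb, the endothelin receptor of migrating crest, rose by 2.55 and Sox9 by 1.29, while the crest factors Sox10 (−0.03), Pax3 (−0.06) and Tfap2b (0.07) did not pass. The Snail genes went opposite ways, with Snai2 at 1.18 and Snai1 at −1.48. Tead4 (−1.37), a factor of trophectoderm, fell, and Six5, a homeobox gene, rose by 1.96. Of 23 claudins, the proteins of tight junctions, 15 did not pass, and Cldn5 of vessels (1.85) was the only one past 2-fold.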
